A study of Homo sapiens with 12 samples.

Results

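The genes described here are 10 members of the machinery that carries proteins into mitochondria: TOMM20, TOMM22, TOMM34 and TOMM40, named for the translocase of the outer membrane (TOM), and TIMM8B, TIMM9, TIMM10, TIMM13, TIMM17A and TIMM44, named for the translocases of the inner membrane (TIM). They were chosen by name as a family, after the comparison of eIF4E with IgG precipitates in these arrays was known. Their values in that comparison are therefore a description, and no member's p-value is printed there. Calls at an adjusted p under 0.05 in that comparison only sort the genes by a threshold and are not support for the choice. Together they have 15 probe sets that the platform annotation assigns to a single gene, of 19064 such probe sets for 11963 genes. A probe set is a group of short probes on the array that together give 1 signal. All 10 genes were bright enough to be tested among 7178 genes, each through its brightest probe set, and 14 of the 15 probe sets passed the same filter.

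The RNA came from precipitates of eIF4E, which holds messenger RNAs by their cap when translation begins, made from MDA-MB-231 cells, an established human triple-negative breast cancer line with a mesenchymal character. Cells were untreated or had been irradiated with 2 Gy of X-rays and collected after 6 h, and anti-eIF4E or a control IgG was used on material from each condition. Both antibodies in both treatments give 4 groups of 3 arrays. Replicates are called biological in the design text, all of the 1 cell line, and no array of total RNA was analysed here, so a transcript's abundance in the cell and its share bound to eIF4E cannot be told apart.

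Most mitochondrial proteins are made in the cytosol from nuclear genes and are imported after or during their synthesis. The TOM complex is the common entry gate: TOMM20 and TOMM22 are receptors for targeting signals and TOMM40 forms the channel, while TOMM34 is a co-chaperone in the cytosol. Small TIM proteins of the intermembrane space escort hydrophobic precursors, with TIMM9 paired with TIMM10 and TIMM8B a relative of the TIMM13 partner TIMM8A. The TIM23 complex of the inner membrane, of which TIMM17A is a part, passes presequence proteins to the matrix, where TIMM44 anchors the import motor.

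Array signals are relative, because each array was scaled by the authors to the same trimmed mean of 500.2. A higher signal is therefore a larger share of an array's RNA, and in bulk material fewer cells with a transcript and less of it per cell cannot be told apart. Markers fitted the line in part: VIM had a median signal of 14630 over the 12 arrays, ESR1 of 37.0, PGR of 2.46 and CDH1 of 15.8, while the mesenchymal marker SPARC was near background at 11.8. Of 9 luminal or epithelial markers taken as low in this line, 5 were above the filter signal of 57.4: KRT8 at 2372, KRT19 at 2208, GATA3 at 863, EPCAM at 753 and ERBB2 at 279. Control measures differed between the antibodies in both treatments. Signal of the Alu probe set, which reads a repeat common in introns, ran from 13482 to 18476 over the 6 arrays of eIF4E and from 36876 to 53246 over the 6 of IgG. The 3′ to 5′ signal ratio of actin, which is high where RNA is short, was 2.96 to 5.38 on IgG and 1.33 to 1.53 on eIF4E arrays. Hybridization controls, control transcripts spiked into the hybridization mix, were 6.08-fold higher on IgG arrays. Poly-A controls were 45.6-fold higher there, at 520 to 1266 against 13.8 to 24.1 on eIF4E arrays. Each of these 4 measures had an exact two-sided permutation p of 0.0021645, the smallest that 6 arrays against 6 can give. The part of these differences in the results on the import genes was not tested.

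Of the 10 genes, 8 were higher and 1 was lower in eIF4E than in IgG precipitates at an adjusted p under 0.05 (limma, mean of both treatments). Among all genes tested 32.5% were higher and 38.3% were lower by the same rule. The members' median log2 difference was 1.00, beside -0.08 over all genes tested. The 6 eIF4E arrays lay wholly above the 6 IgG arrays for 7 members, TOMM22, TOMM34, TOMM40, TIMM8B, TIMM9, TIMM10 and TIMM13, and wholly below them for 0. Of all genes tested, 23.2% lay wholly above and 26.8% wholly below. Since these genes were chosen with this comparison known, nothing is read from these shares.

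The receptor TOMM22 had the largest difference of the 10. Its signal was 138, 181 and 237 on the untreated IgG arrays (replicates 1, 2 and 3) and 114, 183 and 143 on the irradiated IgG arrays. On the eIF4E arrays it was 1488, 1197 and 1168 in untreated and 1296, 1112 and 973 in irradiated cells. Every eIF4E array was thus far above every IgG array, whatever the treatment. The log2 difference was 2.77 ± 0.15 (SE), or 6.82-fold, and stood at position 8 of 7178 genes ordered from the highest difference.

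TOMM40, the channel itself, followed. On IgG arrays its signal was 417, 269 and 288 in untreated and 247, 415 and 302 in irradiated cells. On eIF4E arrays it was 1366, 1392 and 1679 in untreated and 1398, 1200 and 1251 in irradiated cells. The groups did not overlap, and the log2 difference was 2.06 ± 0.14 (SE), at position 67. For TOMM34, the cytosolic co-chaperone, IgG signals were 873, 881 and 1030 untreated and 786, 1049 and 840 irradiated, and eIF4E signals were 1878, 1826 and 1950 untreated and 1477, 2153 and 1699 irradiated. Its lowest eIF4E array, replicate 1 of the irradiated cells, was still above every IgG array. The log2 difference was 0.99 ± 0.11 (SE).

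**Figure D1:**
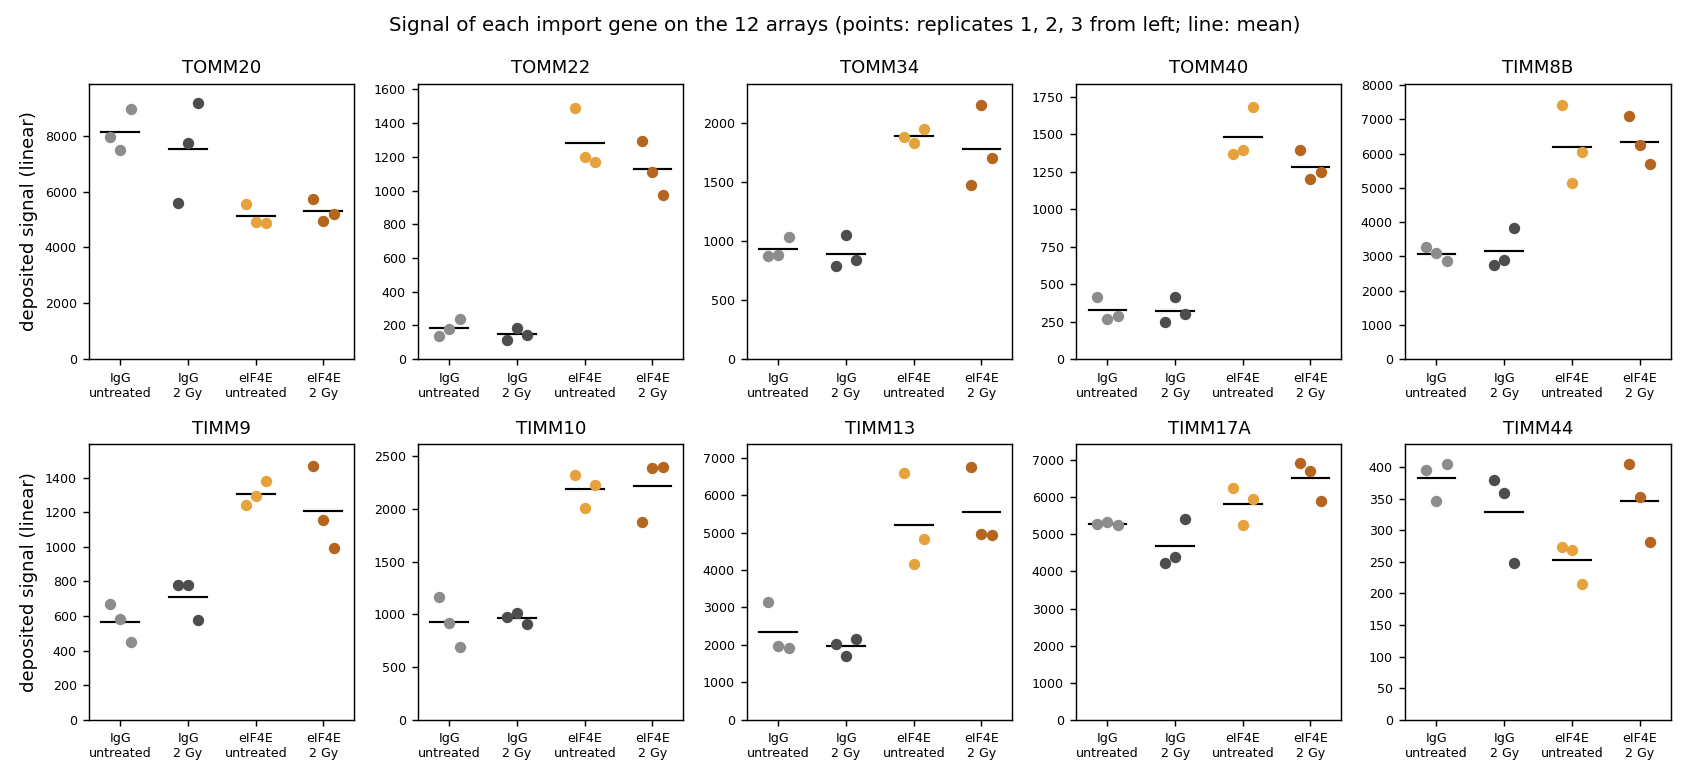
Deposited signal (linear, arbitrary units) of the brightest probe set of each of the 10 import genes on the 12 arrays. Points are the 3 replicates of each group in order and lines are group means. The eIF4E arrays lie above all IgG arrays for 7 genes, and TOMM20 is highest in the IgG groups.

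All 4 genes of small TIM proteins were higher on the eIF4E arrays, by 0.97 to 1.32 on the log2 scale. TIMM10 had IgG signals of 1166, 915 and 689 untreated and 974, 1009 and 913 irradiated, against eIF4E signals of 2321, 2011 and 2232 untreated and 1876, 2390 and 2403 irradiated. Its partner TIMM9 had IgG signals of 672, 581 and 452 untreated and 782, 779 and 576 irradiated, against eIF4E signals of 1245, 1296 and 1383 untreated and 1467, 1158 and 993 irradiated. Neither gene's groups overlapped between the antibodies, and for TIMM9 the gap between them was narrower in irradiated cells (782 to 993) than in untreated cells (672 to 1245). The log2 differences were 1.22 ± 0.12 (SE) for TIMM10 and 0.97 ± 0.13 (SE) for TIMM9.

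TIMM13 had IgG signals of 3157, 1974 and 1910 untreated and 2032, 1706 and 2163 irradiated, against eIF4E signals of 6604, 4171 and 4826 untreated and 6755, 4973 and 4946 irradiated. For TIMM8B they were 3270, 3098 and 2872 on untreated and 2734, 2888 and 3817 on irradiated IgG arrays, and 7423, 5127 and 6030 on untreated and 7085, 6259 and 5694 on irradiated eIF4E arrays. Replicate 1 was the highest eIF4E array for both genes in either treatment. The log2 differences were 1.32 ± 0.15 (SE) for TIMM13 and 1.00 ± 0.11 (SE) for TIMM8B. TIMM8B, TOMM34 and TIMM9 lay between 0.97 and 1.00, closer to each other than their errors.

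The receptor TOMM20 was read by a pair of probe sets with opposite differences. The brighter one, 200662_s_at, had IgG signals of 7974, 7495 and 8957 untreated and 5610, 7755 and 9187 irradiated, against eIF4E signals of 5571, 4918 and 4879 untreated and 5735, 4951 and 5207 irradiated. It was lower on eIF4E arrays, at a log2 difference of -0.57 ± 0.11 (SE), and only the first irradiated IgG array reached into the eIF4E range. The other, 212773_s_at, had IgG signals of 1582, 2028 and 1656 untreated and 1114, 2391 and 1490 irradiated, against eIF4E signals of 2270, 2232 and 2178 untreated and 2148, 2372 and 2016 irradiated. Its log2 difference was 0.40 ± 0.15 (SE), with overlap through the second IgG array of either treatment. The ratio of the brighter to the other within an array was 3.24 to 6.16 on IgG and 2.09 to 2.67 on eIF4E arrays, with no overlap, so the pair changed unequally on any scaling of the arrays. Scaling the arrays to the hybridization controls turned the sign of the brighter one to 2.02, and as the mean of both probe sets the gene stood at -0.09 ± 0.11 (SE). With that mean the lower call ended in the mean of both treatments and in untreated and irradiated cells taken alone. Leaving out irradiated IgG replicate 3 or irradiated eIF4E replicate 2 ended the lower call in irradiated cells, at -0.32 and -0.43, as did median centring, at -0.33, against -0.48 in the fit to all arrays as deposited.

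TIMM17A, a part of the inner membrane channel complex, had differences of unlike size in its probe sets above the filter. The brightest, 215171_s_at, had IgG signals of 5270, 5328 and 5247 untreated and 4217, 4392 and 5414 irradiated, against eIF4E signals of 6260, 5257 and 5947 untreated and 6937, 6697 and 5912 irradiated. These overlapped slightly, at a log2 difference of 0.31 ± 0.09 (SE). Probe set 201821_s_at had IgG signals of 806, 837 and 936 untreated and 572, 967 and 946 irradiated, against eIF4E signals of 2121, 2052 and 1805 untreated and 2056, 1999 and 1985 irradiated. Here the antibodies were far apart, at 1.25 ± 0.12 (SE), and its ratio to the brightest was 0.136 to 0.220 on IgG and 0.296 to 0.390 on eIF4E arrays. A dim one, 201822_at, gave 0.56 ± 0.22 (SE) with overlap. The fourth, 215168_at, at 0.3 to 32.4 on all arrays, did not pass the filter. It had the opposite sign near background, at -0.63 ± 0.22 (SE) with overlap.

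TIMM44, which anchors the import motor, was the member without a call. Its brightest probe set, 203092_at, had IgG signals of 396, 346 and 405 untreated and 379, 359 and 248 irradiated, against eIF4E signals of 274, 269 and 215 untreated and 405, 352 and 282 irradiated. The untreated eIF4E arrays were thus below all untreated IgG arrays, while the irradiated groups overlapped. The log2 difference was -0.25 ± 0.14 (SE). It was past the threshold as lower without irradiated IgG replicate 3, at -0.34, and with array quality weights, at -0.31. The second probe set, 203093_s_at, had IgG signals of 271, 233 and 247 untreated and 252, 259 and 245 irradiated, against eIF4E signals of 331, 324 and 373 untreated and 398, 329 and 316 irradiated. It was higher on every eIF4E array, at 0.43 ± 0.11 (SE). Scaling to the hybridization controls turned the brightest one's sign to 2.21, past the threshold as higher.

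**Figure D2:**
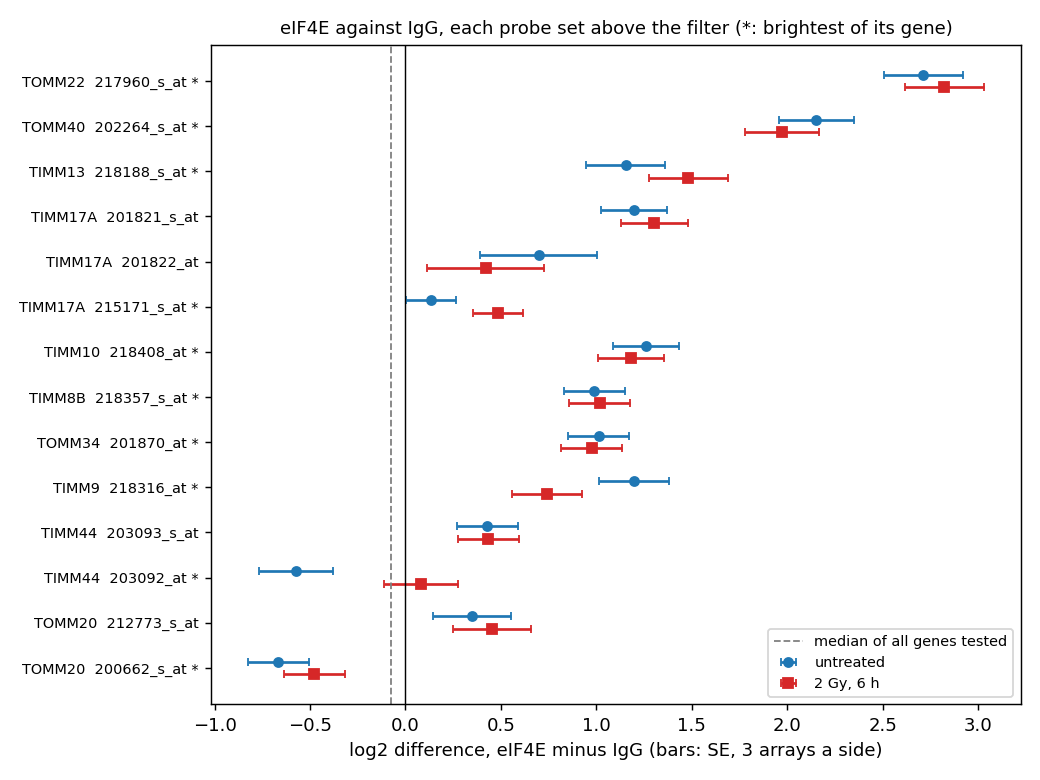
Log2 difference of signal, eIF4E minus IgG, for the 14 import probe sets above the filter, in untreated cells (circles) and irradiated cells (squares), 3 arrays a side, with bars for the SE of the fit. The dashed line is the median of all genes tested in the mean of both treatments, at -0.08, and probe sets of TOMM20, TIMM17A and TIMM44 lie apart from each other.

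Counted by probe set, 12 of the 14 above the filter were higher, 1 was lower and 1 was not called, beside 31.5% higher and 38.3% lower of all 10566 probe sets above it. Disagreement within a gene was not confined to the import genes: opposite calls were found in 234 (16.49%) of the 1419 genes for which at least 2 probe sets were called. The sources used here do not say which stretch of a transcript each probe set reads.

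Each treatment was also taken alone, in comparisons that share no arrays. In untreated cells the calls were 7 higher and 2 lower, TOMM20 at -0.67 ± 0.16 (SE) and TIMM44 at -0.57 ± 0.19 (SE), and the members' median was 1.08, beside 27.3% higher and 31.8% lower among all genes. The TIMM44 call ended without untreated IgG replicate 3, at -0.53, or without untreated eIF4E replicate 3, at -0.47. It also ended under median centring and quantile normalization, each at -0.46, and as the mean of both probe sets, at -0.07. In irradiated cells the calls were 8 higher and 1 lower, TOMM20, and the members' median was 1.00, beside 27.2% higher and 32.4% lower among all genes. TOMM22 was 2.71 ± 0.21 (SE) in untreated and 2.82 ± 0.21 (SE) in irradiated cells, and TOMM40 was 2.15 ± 0.19 (SE) and 1.97 ± 0.19 (SE). The brightest TIMM17A probe set was 0.14 ± 0.13 (SE), not called, in untreated and 0.48 ± 0.13 (SE) in irradiated cells. The difference between these values, 0.35 ± 0.18 (SE), had an adjusted p of 0.999 in limma. As the mean of its probe sets above the filter, TIMM17A was called higher in untreated cells, at 0.68 ± 0.12 (SE). Scaling to the hybridization controls also gave that call, at 2.78. For probe set 201821_s_at the ratio of the eIF4E to the IgG mean signal was 2.32 in untreated and 2.43 in irradiated cells.

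Whether 2 Gy altered the share of these transcripts was asked within each precipitate. Whether irradiation results were also known when the genes were chosen is not recorded. In the eIF4E precipitate 0 of 10 members passed an adjusted p of 0.05 in limma, as did 0% of all genes tested. At an unadjusted p under 0.05, 1 member and 81 of 7178 genes were counted. Those 81 are fewer than that threshold gives on average where no gene differs, and the reason was not tested. Members ranged from -0.20 ± 0.19 (SE) for TOMM40 to 0.43 ± 0.19 (SE) for TIMM44, with a median of 0.03. The 95% intervals of the fit lay within -0.62 and 0.83 for all 10, and the narrowest, that of TIMM17A, ran from -0.11 to 0.44.

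TIMM44 was the member with the unadjusted p, 0.042 in limma, with an adjusted p of 1.00, and with adjusted p-values of 0.231 to 1.00 over the alternatives. Its irradiated eIF4E arrays at 282 to 405 were all above the untreated ones at 215 to 274, the only member so separated, and 9.38% of all genes tested had groups that did not overlap there. The other TIMM44 probe set did not show it, with 316 to 398 in irradiated and 324 to 373 in untreated cells and a log2 difference of 0.02 ± 0.16 (SE).

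In the IgG precipitate 0 of 10 members and 0% of all genes passed the adjusted threshold in limma, and 0 members and 475 genes had an unadjusted p under 0.05. Differences ran from -0.30 ± 0.21 (SE) for TOMM22 to 0.32 ± 0.18 (SE) for TIMM9, with a median of -0.10. The irradiated and untreated IgG arrays overlapped for all 10 members, and 8.68% of all genes did not overlap.

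The test of whether irradiation acted differently in the eIF4E and IgG precipitates also passed 0 members and 0% of all genes in limma. At an unadjusted p under 0.05 there were 1 member and 215 genes. That member was again TIMM44, at 0.65 ± 0.27 (SE), with an unadjusted p of 0.029 and an adjusted p of 0.999 in limma, and the lowest value was -0.45 ± 0.26 (SE) for TIMM9. TIMM44 stood at 0.33 as the mean of its probe sets.

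**Figure D3:**
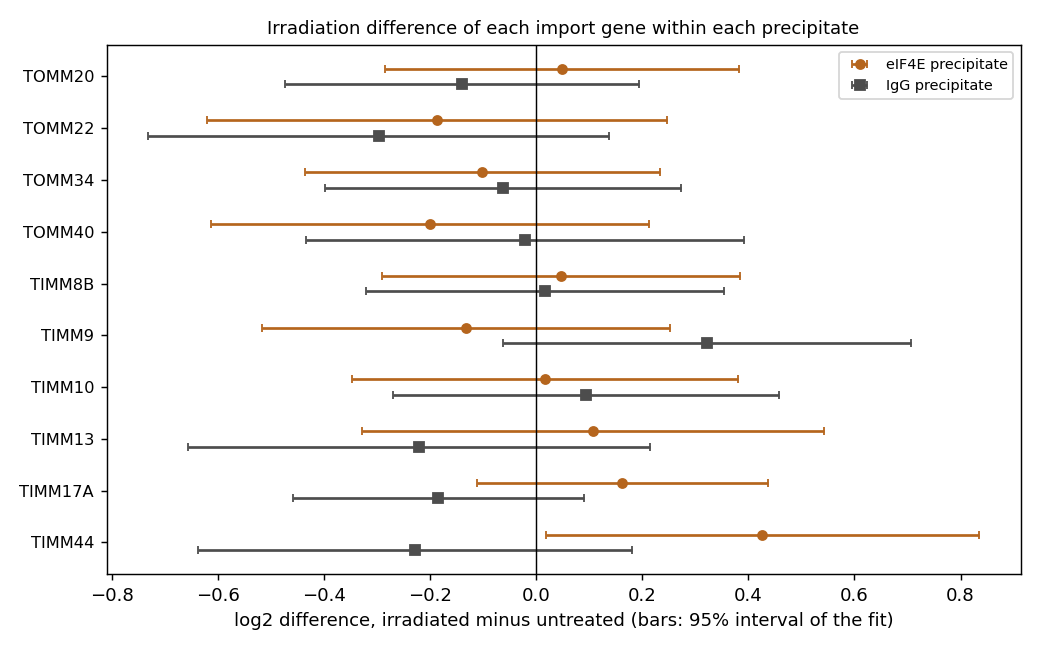
Log2 difference of signal, irradiated minus untreated, for each of the 10 import genes in the eIF4E precipitate (circles) and the IgG precipitate (squares), with 95% intervals of the fit and 3 arrays a group. All intervals but that of TIMM44 in the eIF4E precipitate, which begins at 0.02, include 0.

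The pooled SD of log2 values within groups was 0.13 for TIMM17A, the steadiest member, and 0.31 for TIMM13, the most variable. Within same-numbered pairs of eIF4E arrays, irradiated cells had the higher signal in all 3 pairs for TOMM20, TIMM13 and TIMM44 and the lower one in all 3 for TOMM22. Of all genes tested 14.6% were higher and 13.2% lower in every pair, and the fit with a replicate block called 0 members. Many members were high or low on the same array. Replicate 1 was the highest of the 3 eIF4E arrays for 7 of 10 members in untreated and 8 of 10 in irradiated cells. On IgG arrays replicate 1 was the highest for 5 in untreated and 2 in irradiated cells. These counts were not made over all genes tested. Replicate 3 was the lowest irradiated eIF4E array for 6 members, and replicate 1 the lowest irradiated IgG array for 6.

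The rest of the import pathway was taken from a list of 44 further genes, of which 26 had a probe set of their own and 25 were tested. Between the antibodies 14 were higher, 5 were lower and 6 did not pass, and the median difference was 0.45. Among all genes tested 32.5% were higher and 38.3% lower, and the median was -0.08. By site, outer membrane genes were 3 higher and 1 lower of 4, and inner membrane translocase genes 4 higher and 1 lower of 6. The import motor and matrix chaperones were 3 higher and 2 lower of 6, presequence processing 1 higher and 0 lower of 3, and insertases 2 higher and 0 lower of 3. The disulfide relay gene GFER was higher, and of 2 genes of cytosolic delivery 0 were higher and 1 was lower. Each gene was counted by its brightest probe set. Further ones of SAMM50, GRPEL1, HSPA9, HSPD1 and HSP90AA1 were called on the same side. For DNAJA1, not called, the other was lower, at -0.52 ± 0.10 (SE). For AGK, called lower, the other was not called. The second GFER probe set was dim and went the other way, at group means of 47.8 and 57.9 on IgG and 13.9 and 15.1 on eIF4E arrays. Arrays did not overlap for 11 of the higher and all 5 of the lower genes, beside 23.2% and 26.8% of all genes. This list too was drawn up with the comparison known. Its calls between the antibodies are therefore a description, no p-value is printed with them, and nothing is read from these shares.

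At the upper end were TIMM17B, DNAJC15 and MTX1. TIMM17B, the second form of TIMM17, had a lowest, median and highest signal of 305, 408 and 455 on IgG and 1485, 2165 and 2318 on eIF4E arrays, a log2 difference of 2.38 ± 0.13 (SE). DNAJC15, a J-protein of the import motor, had 1442, 1671 and 1837 on IgG and 4468, 4980 and 5592 on eIF4E arrays, a log2 difference of 1.59 ± 0.09 (SE). MTX1, a metaxin of the sorting and assembly machinery of the outer membrane, had 587, 754 and 1064 on IgG and 1726, 1884 and 2026 on eIF4E arrays, a log2 difference of 1.27 ± 0.13 (SE). All 6 eIF4E arrays were above all 6 IgG arrays for each of these genes.

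At the lower end were TOMM70, HSP90AA1 and HSPD1, a receptor for carrier precursors, a cytosolic chaperone that delivers them and the chaperonin of the matrix. TOMM70 had a lowest, median and highest signal of 3040, 4118 and 4554 on IgG and 931, 1166 and 1265 on eIF4E arrays, a log2 difference of -1.80 ± 0.11 (SE), which scaling to the hybridization controls turned to 0.78. A second TOMM70 probe set, at -0.14 ± 0.11 (SE), was not called. HSP90AA1 had 28714, 36966 and 43259 on IgG and 10552, 11904 and 14607 on eIF4E arrays, a log2 difference of -1.58 ± 0.11 (SE), turned by that scaling to 1.02. HSPD1 had 16710, 20076 and 25960 on IgG and 7974, 8507 and 9518 on eIF4E arrays, a log2 difference of -1.22 ± 0.10 (SE), turned by that scaling to 1.38. All 6 eIF4E arrays were below all 6 IgG arrays for each of them.

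Irradiation passed 0 of the 25 in limma in the eIF4E precipitate, the IgG precipitate and the difference between them, as it did 0% of all genes tested. At an unadjusted p under 0.05 there were 0, 1 and 0 of the 25, beside 81, 475 and 215 of all 7178 genes.

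**Figure D4:**
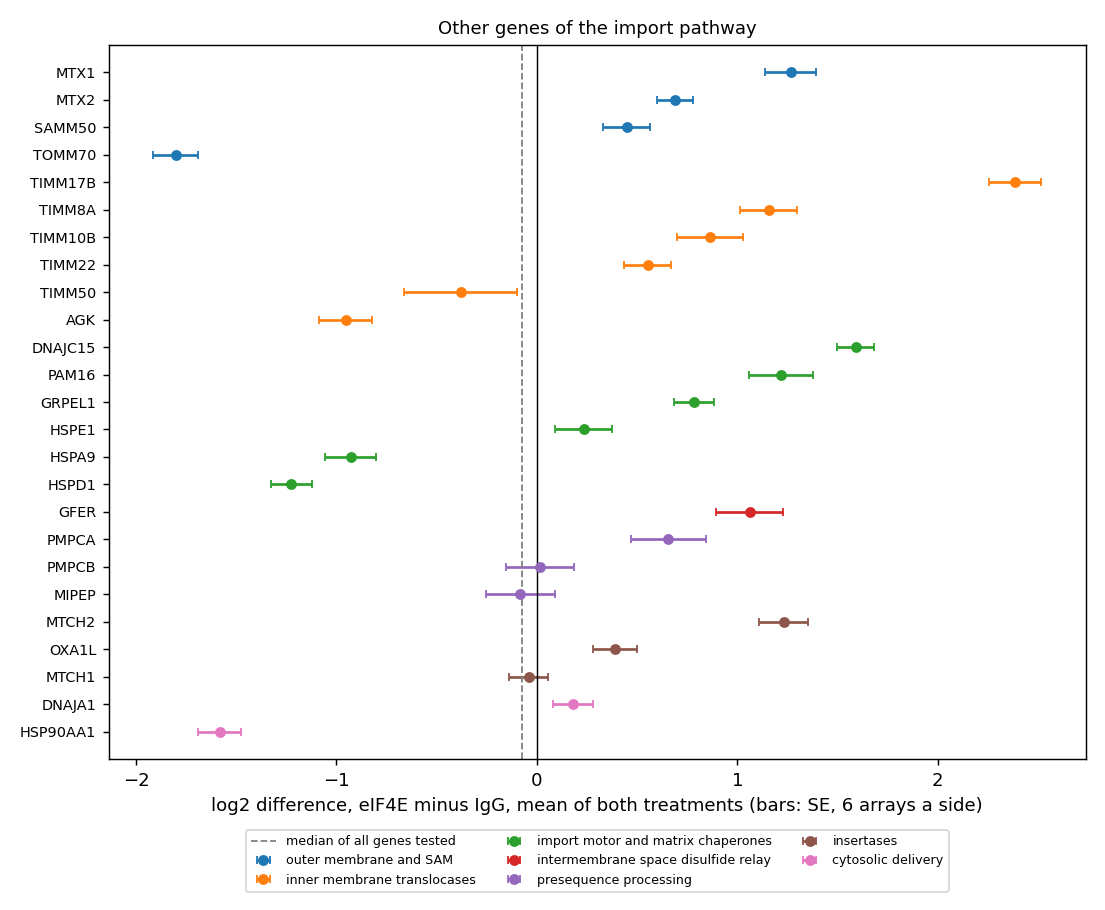
Log2 difference of signal, eIF4E minus IgG, as the mean of both treatments for the 25 other import genes tested, coloured by site, with bars for the SE and 6 arrays a side. TIMM17B is farthest to the right at 2.38 and TOMM70 farthest to the left at -1.80, and the dashed line is the median of all genes tested.

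Genes for mitochondrial proteins often carry promoter elements of ETS family factors and of NRF1, and the promoters of 9 of the 10 members were read from RefSeq (GRCh38.p14). The 250 bases before the start were searched on both strands for exact matches of an ETS motif and an NRF1 motif. These were CCGGAAG, of 7 bases, and GCGCATGC, of 8 bases, which do not overlap each other in sequence. Shorter or variant forms of either motif were not counted. The exact ETS motif was in 3 of 9 members, TOMM20, TIMM10 and TIMM13, and in 14.4% of the promoters of 6055 tested genes. The exact NRF1 motif was in 1 of 9, TIMM9, and in 4.18%. The last 100 bases before the start are shown for TOMM22 (chr22:38681857-38681956, plus strand), with the largest difference, and for 2 members with the ETS motif. These are TOMM20 (chr1:235128838-235128937, minus strand), whose brightest probe set was lower in the eIF4E precipitate, and TIMM10 (chr11:57530755-57530854, minus strand), which was higher. Each reads 5′ to 3′ on the gene's strand, and capitals mark the ETS motif.
TOMM22: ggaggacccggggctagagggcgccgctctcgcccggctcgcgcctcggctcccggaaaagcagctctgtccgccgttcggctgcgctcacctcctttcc
TOMM20: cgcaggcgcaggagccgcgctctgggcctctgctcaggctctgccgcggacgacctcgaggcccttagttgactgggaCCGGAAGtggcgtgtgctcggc
TIMM10: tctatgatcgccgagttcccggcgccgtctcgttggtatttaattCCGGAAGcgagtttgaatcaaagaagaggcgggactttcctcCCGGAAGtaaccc
In these windows the exact ETS motif was found once in TOMM20 and 2 times in TIMM10, and these letters were not in the TOMM22 window. The side of TOMM20 in the antibody comparison depended on the probe set, and as the mean of both it was not called. A match is a run of letters and not a site shown to be bound, and the arrays measured no binding to DNA.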

How the data were processed

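RNA of 12 immunoprecipitates (3 arrays in each of 4 groups, by title) was measured on Affymetrix arrays. The deposited values are 1 intensity per probe set and array on a linear scale, made by the authors with MAS5, per the submitters' processing notes. No source used here gives its version, and no further normalization was applied. Array number, not read depth, limits precision.

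The brightest probe set stood for a gene, and one ending in _x_at was used if a gene had no other kind. A filter at the 40th percentile of mean log2 signal (a signal of 57.4) left 7178 genes. In R 4.3.3, limma 3.58.1 (lmFit and eBayes, trend on) fitted log2(signal + 16) to the 4 groups of all 12 arrays, and p-values were adjusted with Benjamini-Hochberg over all genes tested at 0.05. This scale understates changes of dim genes. The fit was tested on simulated data. Figures used matplotlib 3.10.9.

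The members and the list of other import genes were chosen with earlier results of these data known. All probe sets of the members are described. Of the other import genes, up to 3 at either end of the antibody comparison are named, among those past the threshold without overlap of arrays, and any past it by irradiation.

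Same-numbered untreated and irradiated eIF4E arrays deviated together from their group means, with correlations over genes of 0.375, 0.207 and 0.182. They may be paired, but the labels mention no shared culture or day. A replicate 1 that stood apart in both groups would give the same pattern. The SEs, intervals and p-values of limma, between the antibodies as for irradiation, come from the unpaired fit. The replicate block was run as an alternative. Replicate 1 also correlated across antibodies, at 0.293 between the untreated groups and 0.278 between the irradiated groups. It stood at 0.302 between untreated IgG and irradiated eIF4E arrays, and at 0.254 between untreated and irradiated IgG arrays. The other 5 pairs of groups each had at least 1 replicate number with a correlation under 0.1. Arrays of the antibodies may thus be paired too, which the labels do not say. The alternatives changed the pseudocount (1 or 64), the filter (none, or the 60th percentile), the scaling (quantile normalization, median centring, or the hybridization controls), the model (without the trend, with array quality weights, with a replicate block, or fitted to the compared groups alone), the probe sets (their mean, or each alone) and the arrays (replicates 2 and 3 only, or each array left out).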

Additional observations from a re-analysis of the deposited data

How the results depend on the processing

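The count of members called was 8 to 10 in each antibody comparison and 0 in each irradiation comparison under all alternatives, and that of the other import genes was 16 to 24, against 19, and 0. The replicate block left the counts at 9 and 0 and the members' median at 0.999, and changed no call of a member. Scaling to the hybridization controls made 6909 of 7178 genes higher and 0 lower in eIF4E, against 2336 and 2750. It moved the median of all genes from -0.08 to 2.33 and the members' median to 3.57. Median centring moved the median of all genes to 0.06, and of the called genes 53.6% were then higher, against 45.9%. Quantile normalization gave 50.1%. Array number limits what could be seen, and signals near background hold no order.

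Values whose sign turned are log2 differences and, apart from the antibody comparison, none passed a threshold. The cause was not tested. Under scaling to the hybridization controls the antibody comparison gave TOMM20 2.02 (mean), 1.98 (untreated) and 2.07 (irradiated), TIMM44 2.21 (mean) and 1.94 (untreated), TOMM70 0.78, HSP90AA1 1.02 and HSPD1 1.38. That scaling gave irradiation differences in eIF4E of -0.088 for TOMM20, -0.090 for TIMM8B, -0.12 for TIMM10 and -0.029 for TIMM13, in IgG of -0.023 for TIMM8B, and differences between precipitates of -0.059 for TOMM22 and -0.067 for TIMM8B. TIMM44 as a probe set mean was 0.092 between antibodies. Array quality weights gave -0.12 for TIMM8B (difference between precipitates) and 0.13 for TOMM40 (IgG). Median centring gave -0.0055 for TIMM8B (IgG). Quantile normalization gave differences between precipitates of -0.0021 for TIMM8B and 0.0081 for TOMM34. Replicates 2 and 3 alone gave -0.052 for TIMM8B and 0.040 for TOMM34 between precipitates, 0.043 for TOMM20 and 0.33 for TOMM40 in IgG, and 0.019 for TOMM34 in eIF4E.

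Leaving out 1 array at a time gave these ranges for irradiation in eIF4E: TOMM20 from -0.010 to 0.11, TOMM34 from -0.25 to 0.022, TIMM8B from -0.082 to 0.18, TIMM10 from -0.044 to 0.13 and TIMM13 from -0.041 to 0.29. In IgG they were TOMM20 from -0.30 to 0.056, TOMM34 from -0.18 to 0.021, TOMM40 from -0.21 to 0.16, TIMM8B from -0.13 to 0.11, TIMM10 from -0.098 to 0.28 and TIMM13 from -0.35 to 0.011. Between precipitates they were TOMM20 from -0.0075 to 0.35, TOMM22 from -0.070 to 0.29, TOMM34 from -0.18 to 0.085, TOMM40 from -0.36 to 0.013, TIMM8B from -0.099 to 0.18 and TIMM10 from -0.26 to 0.11. TIMM44 between the antibodies in irradiated cells ran from -0.10 to 0.21.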
